A study of Mus musculus with 2 samples.

Results

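Nuclei of the spinal dynorphin lineage that carried at least 1 RNA molecule of the prodynorphin gene Pdyn together with an inhibitory transmitter profile were examined across 2 libraries of single-nucleus RNA counts. A nucleus was a member if the unique molecular identifiers (UMIs, one per captured RNA molecule) of Gad1, Gad2, Slc32a1 and Slc6a5 summed to at least 2, Slc17a6 was at 0, Pdyn had at least 1 UMI and Alk had fewer than 20. Gad1 and Gad2 make GABA, Slc32a1 loads GABA and glycine into vesicles, Slc6a5 takes up glycine, Slc17a6 loads glutamate, and Alk encodes a receptor tyrosine kinase. The rule found 763 members among 7610 nuclei, 409 naive and 354 injured. The 3216 nuclei that met the same conditions with 0 Pdyn UMIs (1717 naive and 1499 injured) served as the reference.

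The nuclei came from adult Pdyn-IRES-Cre(+/-); R26-LSL-Sun1.eGFP(+/-) mice of either sex, from lumbar L3-L5 dorsal spinal cord, sorted for green fluorescence. The injured library pooled 8 mice given an incision of the left plantar hindpaw at postnatal day 3. The naive library pooled 8 littermates exposed to isoflurane at that age without an incision. Both groups carry the same alleles: Cre is heterozygous behind Pdyn, and the nuclear envelope label Sun1.eGFP stays on once Cre has acted. The sort therefore takes nuclei by Cre activity at any time of life, whether or not Pdyn is transcribed in the adult. There was 1 library per group, so no difference below has a replicate check and none was tested. Intervals are 95% intervals for counting error only, and the injury, the pool of mice and the library cannot be told apart.

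Prodynorphin is the precursor of the dynorphins, opioid peptides that act mainly on the kappa opioid receptor, encoded by Oprk1. In the superficial dorsal horn, where touch, itch and pain signals arrive, dynorphin is made by both inhibitory and excitatory interneurons. Many of the inhibitory ones also make the peptide galanin, from the gene Gal, and they are known for their part in holding back itch and mechanical pain. Nuclear RNA includes many unspliced transcripts, so a nucleus with 0 Pdyn UMIs may still transcribe the gene.

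Pdyn chose these nuclei, Gal was the peptide gene that stood with it most often, and Mlxipl ranked highest over the reference when each gene was taken at the lower of its naive and injured ratios. The 250 bases before the annotated start of each are given to show these loci. They are from RefSeq promoters on build GRCm38.p6, written 5′ to 3′ on the strand of the gene, with matches to CANNTG (the E-box core, bound by basic helix-loop-helix factors) in capitals.
Pdyn, chr2:129699939-129700188, minus strand: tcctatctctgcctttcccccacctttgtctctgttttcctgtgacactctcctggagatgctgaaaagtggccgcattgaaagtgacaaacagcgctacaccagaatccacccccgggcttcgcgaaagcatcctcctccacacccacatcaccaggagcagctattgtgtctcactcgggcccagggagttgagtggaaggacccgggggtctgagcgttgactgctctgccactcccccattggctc
Gal, chr19:3414545-3414794, minus strand: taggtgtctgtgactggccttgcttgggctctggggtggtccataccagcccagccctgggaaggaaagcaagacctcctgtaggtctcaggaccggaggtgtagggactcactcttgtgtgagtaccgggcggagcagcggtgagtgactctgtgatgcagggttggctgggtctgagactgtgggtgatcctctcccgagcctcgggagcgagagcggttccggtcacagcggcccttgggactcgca
Mlxipl, chr5:135089640-135089889, plus strand: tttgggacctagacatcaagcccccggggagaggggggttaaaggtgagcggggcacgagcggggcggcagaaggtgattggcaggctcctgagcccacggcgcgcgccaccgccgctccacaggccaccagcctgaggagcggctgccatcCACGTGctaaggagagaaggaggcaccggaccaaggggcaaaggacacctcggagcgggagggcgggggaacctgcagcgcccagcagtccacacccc
Mlxipl had 1 match, and Pdyn and Gal had 0. On both strands, AGGTCA, the core site of orphan nuclear receptors such as that encoded by Rorb, and TGACG, the core site of cyclic AMP response factors, were searched in the same windows, and none of the 3 windows held either. Overlaps between the motifs were not removed. Among all 32851 promoter windows of this length, 66.2% held CANNTG, 14.0% AGGTCA and 17.8% TGACG, and among the 8587 windows of measured genes 56.3%, 10.0% and 27.0%. In the 85 windows of the genes past 1.5-fold higher in members (70 of 94 genes matched), the shares were 60.0%, 7.06% and 15.3%. The absence of these letters says nothing of factors bound elsewhere.

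Depth was similar in members and reference within a library. Members held a median of 6857 UMIs (naive) and 7839 UMIs (injured), against 6938 and 8333 in the reference. The libraries as a whole held 30602222 and 32934588 UMIs, with medians of 6955 and 8464 per nucleus, so the injured library was the deeper. Of the barcode sequences, 3 occur in both libraries. Nuclei with UMIs of both Xist and Y-linked genes, which a single nucleus of 1 sex should lack, made up 4.89% and 5.93% of members and 4.60% and 5.80% of reference nuclei.

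Pdyn was detected in 409 of 2126 naive inhibitory nuclei, 19.2% (17.6 to 21.0), and in 354 of 1853 injured ones, 19.1% (17.3 to 21.0). Members were chosen by these UMI counts, so the Pdyn values are descriptions. Thinned to 4000 UMIs a nucleus, leaving out shallower nuclei (2073 naive and 1835 injured remained), the shares were 12.1% and 10.8%. Over all inhibitory nuclei Pdyn stood at 31.8 counts per 1000000 UMIs (CPM, 29.0 to 34.6) in the naive and 27.2 CPM (24.8 to 29.9) in the injured library. No interval was computed for the ratio of these levels, so nothing is read from the overlap of their intervals.

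Most members rest on a single molecule. In the naive library 330 members (80.7%) held exactly 1 Pdyn UMI, 66 held 2 and 13 held 3 or more, with a highest count of 7. In the injured library 278 members (78.5%) held 1, 62 held 2 and 14 held 3 or more, with a highest count of 9. Members held 49.3% of all Pdyn UMIs of the naive and 45.3% of those of the injured library. At the edge of the inhibitory threshold, 93 naive and 53 injured nuclei with Pdyn had a transmitter sum of 1 and stayed out, while 112 and 96 had a sum of 2 and came in. At the Alk limit, 8 naive and 9 injured nuclei with Pdyn had 10 to 19 Alk UMIs and came in, and 15 and 34 had 20 or more and stayed out. A further 24 naive and 19 injured nuclei with Pdyn and a transmitter sum of at least 2 held at least 1 Slc17a6 UMI and stayed out, whatever their Alk count.

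Free RNA from burst cells can place a UMI in a nucleus that does not transcribe the gene. In the glial clusters 23 (led by Slc39a12, Gja1, Dnah12 and Aqp4, genes of astrocytes and ependymal cells) and 24 (oligodendrocyte-like, with Mag among its leading genes), 0 of 188 nuclei held a Pdyn UMI, which allows a share of up to 1.60%. Those nuclei were shallow, with a median of 2462 UMIs. The 138 glial nuclei of at least 2000 UMIs allow up to 2.17%, and inhibitory nuclei thinned to 2000 UMIs showed 6.57% (naive) and 5.75% (injured). Gal, by comparison, was found in 14.3% of naive and 11.1% of injured oligodendrocyte-like nuclei, so low shares of Gal are not read as expression. Oligodendrocyte-like clusters were limited to those with few inhibitory UMIs per nucleus. Cluster 22, whose leading genes are also those of oligodendrocytes, was not among them. In it, 0 of 7 naive and 11 of 43 injured inhibitory nuclei held Pdyn.

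The transmitter genes matched the inhibitory label, as the rule requires. Gad2 was found in 77.8% of naive and 82.5% of injured members, Gad1 in 65.3% and 63.3%, Slc32a1 in 47.4% and 43.5%, and Slc6a5 in 45.5% and 48.3%. The transcription factor Pax2, an inhibitory marker that the rule did not use, was found in 63.1% and 67.0% of members and in 64.0% and 68.8% of the reference. Summed markers of some other cells were low in members: astrocyte markers (5 of 5 genes in the data) at 5.92 and 5.80 CPM, endothelial ones (2 of 3) at 6.25 and 4.83 CPM and microglial ones (4 of 4) at 50.3 and 38.0 CPM, of which P2ry12 made up 32.9 and 26.1 CPM. Excitatory neuron markers (4 of 4) summed to 175 and 183 CPM, beside 197 and 168 CPM in the reference. Of these markers, Slc17a6 was fixed at 0 by the rule. Tacr3 stood at 108 and 105 CPM in members with 1 Pdyn UMI and at 94.5 and 79.8 CPM in those with 2 or more. In excitatory nuclei (at least 2 Slc17a6 UMIs and none of the inhibitory genes) Tacr3 stood at only 12.6 and 10.5 CPM. The Tacr3 part of the sum is therefore not read as excitatory RNA in members. The source of the rest, from Lmx1b and Ebf2, was not tested. Primary sensory neuron markers (3 of 3) summed to 14.5 and 17.1 CPM, above the 7.97 and 5.17 CPM of the reference. Nearly all of this was Calca (14.5 and 16.4 CPM), the gene of calcitonin gene-related peptide and a leading gene of cluster 3, while the nociceptor sodium channel Scn10a was at 0 in members of both libraries. The part of these markers in the results was not tested. Oligodendrocyte markers (6 of 6) stood at 106 and 282 CPM and are taken up with the injury comparison.

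Members were unevenly spread over transcriptomic clusters. Clusters were computed from 2000 variable genes, with Pdyn, Alk, other peptide genes and peptide receptor genes kept out. In cluster 3 (led by Tgfb1, Efhd1, Chodl and Calca), 77 of 189 naive inhibitory nuclei (40.7%, 33.7 to 48.1) and 84 of 174 injured ones (48.3%, 40.7 to 56.0) held Pdyn. In cluster 0 (Plcg2, Col5a3, Tgfb1 and Pde11a) it was 118 of 361 (32.7%) and 92 of 276 (33.3%), and in cluster 5 (Foxo1, Rspo3, Hpse2 and Hrh3) 61 of 162 (37.7%) and 51 of 178 (28.7%). These 3 clusters held 256 naive members, 62.6% (57.7 to 67.3), and 227 injured ones, 64.1% (58.9 to 69.1), against 26.6% and 26.8% of the reference. Among members with 2 or more Pdyn UMIs the share was 54 of 79 (68.4%) and 52 of 76 (68.4%).

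Among clusters with at least 24 inhibitory nuclei in both libraries, the lowest shares by the mean of both libraries were in cluster 14 (Rasgrp4, Acss1 and Crabp1) at 0.855% and 4.65%, cluster 17 (Gata3, Pkd2l1 and Myo3b, genes of neurons that contact cerebrospinal fluid) at 1.75% and 2.63%, and cluster 2 (Tfap2b and Foxp2) at 3.65% and 5.09%. Cluster 13, led by Nos1, had 10.1% in the naive library and 3.45% in the injured one, where it lay below clusters 14 and 2. The small cluster 16, with the myelin gene Pmp22 among its leading genes, held 4 of 24 naive and 10 of 24 injured nuclei with Pdyn, and their intervals overlap (4.74 to 37.4 and 22.1 to 63.4). The injured share, 41.7%, was above those of clusters 0 and 5. Its nuclei were deep, with medians of 10790 and 14440 UMIs, and at 4000 UMIs the shares were 5.77% and 18.6%. In the 3 clusters richest in members, depth was at or below the library median (5498 to 6367 UMIs naive, 6822 to 7484 injured), and at 4000 UMIs their shares remained 21.4% to 30.5% naive and 16.7% to 32.6% injured.

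**Figure D1:**
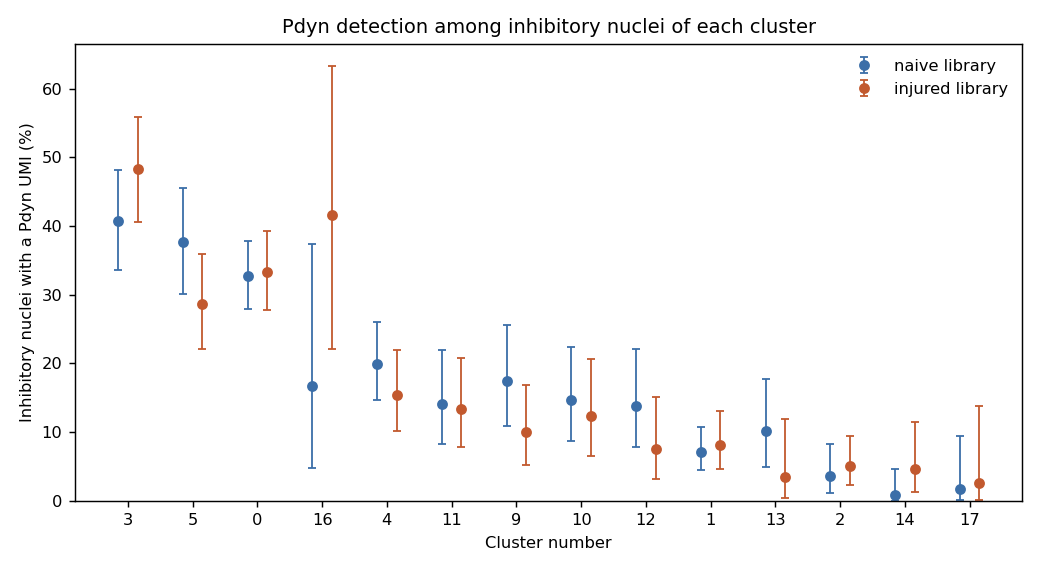
Share of inhibitory nuclei with at least 1 Pdyn UMI (y axis, percent) in the 14 clusters with at least 24 inhibitory nuclei in each library (x axis, cluster number, ordered by the mean of both shares); points are the libraries and bars exact 95% intervals for counting error. Clusters 3, 5 and 0 lie at 28.7% to 48.3% in both libraries, while clusters 2, 14 and 17 lie at or below 5.09%.

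Against the reference, 94 of 8682 measured genes (1.08%) were at least 1.5 times higher in members in both libraries, and 298 (3.43%) at least 1.5 times lower. Measured here means at least 200 UMIs over members and reference in each library. Over all 8682 genes the median log2 ratio was -0.01 and -0.02. The genes highest in members are given first, followed by the lowest and then by the gene lists.

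Mlxipl, which encodes the glucose-responsive transcription factor ChREBP, stood at 75.7 CPM in naive members and 27.2 CPM in the reference, and at 68.6 against 25.5 CPM in the injured library. The ratios were 2.79 (2.35 to 3.30) and 2.69 (2.26 to 3.20). Pde11a, a phosphodiesterase that breaks down cyclic AMP and cyclic GMP, stood at 732 against 318 CPM and 900.5 against 378 CPM, ratios of 2.298 (2.18 to 2.42) and 2.38 (2.27 to 2.49). Gucy2d, a membrane guanylate cyclase that makes cyclic GMP, stood at 141 against 64.2 and 152 against 62.9 CPM. Other enzymes of cyclic nucleotide turnover were lower in members: the phosphodiesterases Pde1c, Pde4b, Pde4d and Pde10a and the adenylate cyclases Adcy1 and Adcy2 were past the limit on that side in both libraries.

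Grin2c, the GluN2C subunit of NMDA receptors, stood at 39.8 against 17.9 and 48.3 against 16.6 CPM. C1ql3, a secreted synaptic organiser, stood at 74.7 against 34.7 and 66.7 against 29.2 CPM. Hrh3, the histamine H3 receptor, stood at 41.1 against 19.9 and 37.4 against 17.2 CPM. These receptor and synapse genes kept ratios from 2.07 to 2.91 in both libraries. Ankfn1 was abundant, at 1643 against 742 and 1829 against 859.5 CPM. The others of the 12 highest were Cecr2, a chromatin remodelling factor, Arhgef19, a guanine nucleotide exchange factor, Hpse2, a heparanase relative, Eva1c and Fam179a, with ratios from 2.01 to 2.63. Among members with at least 2 Pdyn UMIs, Fam179a was inside the 1.5-fold limit in both libraries and Arhgef19 in the injured one. Among nuclei with Y-linked and no Xist UMIs, Arhgef19 and Hpse2 were inside it in the naive library.

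Among the 11 named genes lowest in members were several that mark other spinal neurons. Pkd2l1, a channel of neurons that contact cerebrospinal fluid, stood at 7.57 CPM in naive members against 48.0 in the reference, and 9.67 against 38.1 in the injured library. Slc26a4, an anion exchanger, stood at 1.97 against 19.7 and 3.22 against 18.6 CPM, and Myo3b, a myosin, at 15.1 against 89.5 and 20.3 against 76.0 CPM. All 3 are among the leading genes of cluster 17. In an alternative added after the data were seen, nuclei with 3 or more UMIs of the cerebrospinal fluid markers (Pkd2l1, Pkd1l2 and Myo3b) were removed. Slc26a4, which is not among these markers, then had log2 ratios of 0.76 in the naive library and -0.38, inside the limit, in the injured one. These rest on few molecules. Before the removal, naive members with 1 and with 2 or more Pdyn UMIs held 4 and 2 Slc26a4 UMIs, and injured ones 9 and 1. A higher level in members is therefore not read from the naive value. Pkd2l1 and Myo3b helped to choose the nuclei removed, so their values after the removal are fixed in part by it and nothing is read from them.

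Meis2, a homeodomain transcription factor (14.8 against 78.6 and 18.0 against 77.6 CPM), was also lower. Without the same nuclei its log2 ratios were -0.48, inside the limit, in the naive library and -1.59 in the injured one. Pcdh15, a protocadherin, stood at 206 against 702 and 225 against 753 CPM, a ratio of 0.293 (0.270 to 0.318) and 0.299 (0.277 to 0.323). Lgi2, Zfpm2, Stard5, Bcan, Arhgap22 and Pard3b had ratios from 0.181 to 0.323.

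**Figure D2:**
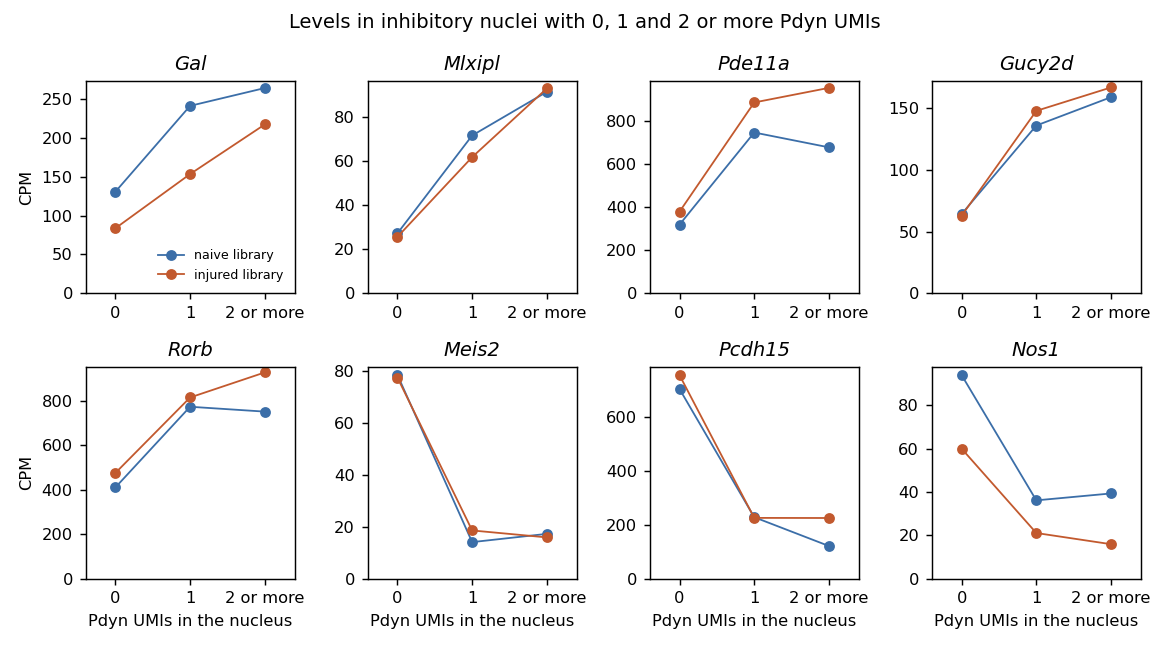
Level in CPM (y axis, from 0) of 8 genes in inhibitory nuclei with 0, 1 and 2 or more Pdyn UMIs (x axis), one line per library. Gal, Mlxipl, Pde11a, Gucy2d and Rorb are higher in nuclei with 1 Pdyn UMI than with 0, Meis2, Pcdh15 and Nos1 are lower, and the step from 1 to 2 or more is smaller.

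Of the peptide genes, Gal was the most widespread in members. It was found in 287 of 409 naive members (70.2%, 65.5 to 74.6) against 47.9% of the reference, and in 228 of 354 injured members (64.4%, 59.2 to 69.4) against 40.0%. Thinned to 4000 UMIs, the shares were 55.3% against 35.2% and 45.6% against 25.9%. Its level was 246 against 131 CPM and 168 against 83.7 CPM, ratios of 1.88 (1.73 to 2.06) and 2.01 (1.81 to 2.23).

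Cartpt, the precursor of CART peptides, was the other peptide gene past 1.5-fold in both libraries, at 37.5 against 24.9 and 46.1 against 17.4 CPM. A single nucleus of the injured library held 40 of its 143 Cartpt UMIs in members. Pnoc, the nociceptin precursor, was found in 45.5% and 46.6% of members and stood at 103 against 99.4 and 97.0 against 65.2 CPM. Penk, the enkephalin precursor, was found in 18.3% and 14.1% of members and 26.6% and 20.1% of the reference, at 55.9 against 63.8 and 25.1 against 39.7 CPM. Members thus held Gal more often than the reference and Penk less often, with Pnoc near it in the naive library. Npy was found in 8.31% and 8.19% of members, Tac2 in 5.87% and 4.80% and Sst in 3.67% and 2.54%. In the reference these were 8.85% and 7.61%, 6.12% and 8.74%, and 3.20% and 2.60%. The shallower oligodendrocyte-like nuclei held Penk in 7.14% (naive) and 2.22% (injured) and Cartpt in 0% and 6.67%. They held Tac2 in 2.38% and 4.44%, Sst in 2.38% and 0%, and Npy in 0% and 0%. Low shares of these peptide genes are likewise not read as expression.

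None of the 9 measured genes of the opioid system was past 1.5-fold in both libraries, and the list's median log2 ratio was -0.03 and -0.09. Oprk1, the receptor for dynorphin itself, stood at 30.9 against 25.1 and 19.7 against 21.6 CPM, with intervals of the ratio on both sides of 1. Oprm1, the mu opioid receptor, stood at 100.3 against 144 and 95.1 against 129 CPM, ratios of 0.698 (0.616 to 0.788) and 0.734 (0.647 to 0.831), inside the 1.5-fold limit. The prohormone processing genes Pcsk1n (1.13 and 1.15), Cpe (1.01 and 1.061) and Scg5 (0.980 and 0.938) were near the reference. Pcsk2 (0.705 and 0.886) was below it, inside the 1.5-fold limit. Of 11 measured peptide receptors, Sstr2, a somatostatin receptor, was higher (65.8 against 35.7 and 51.9 against 28.2 CPM) and the receptor tyrosine kinase Kit, held in the same list, was lower.

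Among 25 measured transcription factors of the dorsal inhibitory list, 2 were higher and 6 lower in both libraries. Rorb, a nuclear receptor of superficial dorsal horn interneurons, stood at 769 against 410.4 and 839.6 against 475 CPM and was found in 80.7% and 84.5% of members against 53.5% and 54.7% of the reference. Tshz2 had ratios of 1.51 and 1.501. Lower were Meis2, Zfhx3 (0.450 and 0.322), Esrrg (0.404 and 0.455), Foxp2, Sox5 and Satb1. Pax2 (0.890 and 0.917) and Pax8 (1.38 and 1.37) stayed inside the limit. Of 11 measured markers of other dorsal horn inhibitory types, Rorb, Cartpt and Rspo3, a Wnt agonist (256 against 125 and 223 against 129.5 CPM), were higher, and Nos1, the neuronal nitric oxide synthase (36.8 against 94.0 and 19.98 against 60.0 CPM), Tnr and Fam19a2 were lower.

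The receptor, channel and signalling lists held more lower than higher genes, beside 3.43% lower and 1.08% higher over all genes. The exceptions were sodium and calcium channels and the peptide receptors above, with 1 gene on each side. Median log2 ratios were -0.14 and -0.16 for GABA and glycine receptors and 0.12 and 0.06 for glutamate receptors. They were -0.03 and -0.01 for potassium, HCN and leak channels and 0.02 and -0.04 for sodium and calcium channels. For G protein and second messenger genes they were -0.08 and -0.09, beside -0.01 and -0.02 over all genes. Of 17 GABA and glycine receptor genes 0 were higher and 3 lower (Gabra4, Gabra5 and Gabrb2). Of 22 glutamate receptor genes Grin2c was higher, and Gria3, Grin2a, Grid1 and Grm3 were lower. Of 38 potassium, HCN and leak channels Kcnk2 (TREK-1; 1.62 and 1.68) and Kcnt2 (a sodium-activated channel; 1.51 and 1.61) were higher and 5 lower, with Kcnh8 lowest (0.382 and 0.304). Of 22 sodium and calcium channels Cacna2d1 (1.55 and 1.90) and Cacnb3 (1.502 and 1.70), both auxiliary calcium channel subunits, were higher and 0 lower. Of 36 G protein and second messenger genes Rgs12 was higher and 8 lower, among them 4 phosphodiesterases and 2 adenylate cyclases.

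Adhesion and guidance genes leaned lower. Of 54 measured, 0 were higher and 19 lower in both libraries, with a median log2 ratio of -0.29 and -0.59 beside -0.01 and -0.02 over all genes. The lowest were Nrp2, a semaphorin coreceptor (0.157 and 0.327), and Cdh12, a cadherin (0.402 and 0.368). Of 13 monoamine, acetylcholine and cannabinoid receptors 0 were higher and 4 lower (Htr2c, Htr4, Drd2 and Chrm2), with a median log2 ratio of -0.40 and -0.57. Of 13 measured heat shock genes 6 were above 1 and 2 below 1 in both libraries, and 0 passed the limit.

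The differences above were largely absent when members were set against reference nuclei of the same clusters. In this alternative, added after the data were seen, each reference nucleus was weighted so that the reference had the cluster make-up of the members. Of the 94 higher genes, 1, Cacna2d1, was still past 1.5-fold in both libraries, and of the 298 lower genes 0 were. The median log2 ratio of the 94 genes went from 0.79 to 0.10 (naive) and from 0.82 to 0.11 (injured), and that of the 298 genes from -0.95 to -0.11 and from -0.98 to -0.22. Some of these genes helped to build the clusters: 36 of the 94 and 164 of the 298 were among the variable genes. The 58 higher genes that were not had medians of 0.75 and 0.80, and of 0.10 and 0.11 after weighting.

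**Figure D3:**
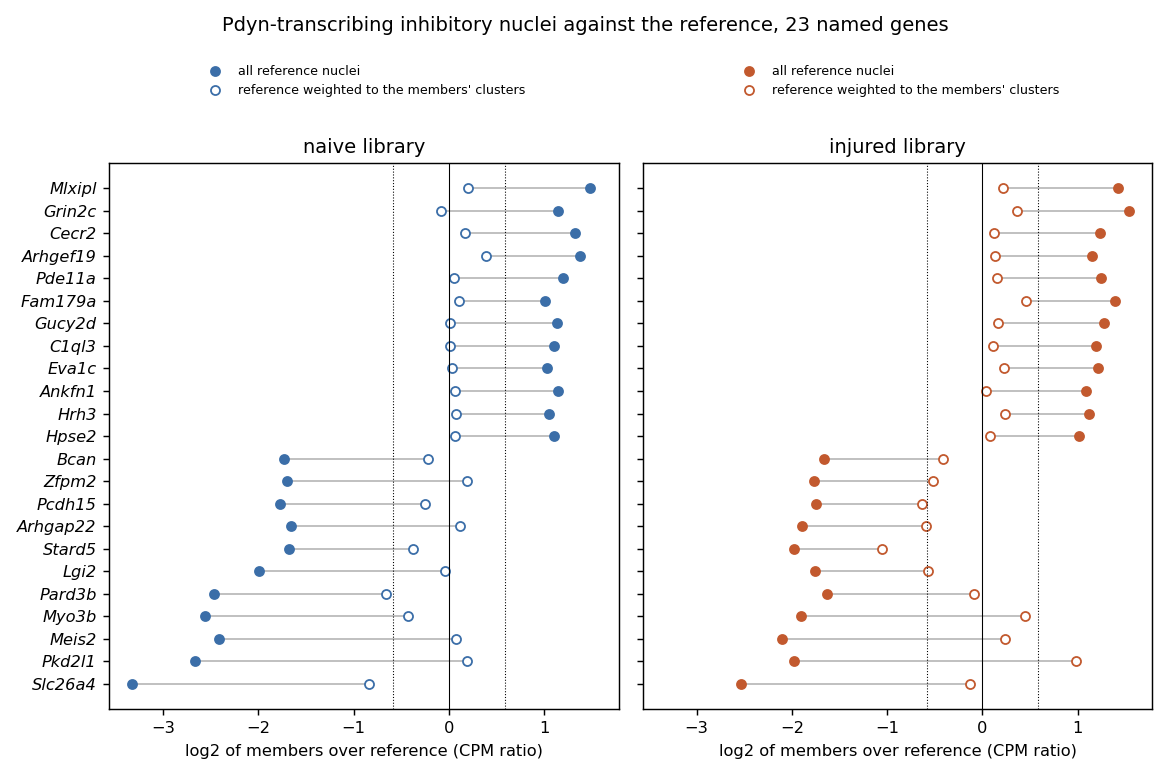
Log2 ratio of members over reference (x axis) for 12 of the highest and 11 of the lowest genes (y axis), naive library left and injured library right; filled points use all reference nuclei, open points the reference weighted to the clusters of the members, and dotted lines mark 1.5-fold. Among the 12 higher genes every open point lies closer to 0 than its filled point.

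Within single clusters Gal showed the same. In cluster 0 it stood at 293 CPM in 118 naive members and 290.2 CPM in 243 reference nuclei, in cluster 3 at 457 and 475.5 CPM, and in cluster 5 at 328 and 344 CPM. In the injured library these pairs were 220.0 and 183 CPM, 290.5 and 283 CPM, and 239.8 and 262 CPM. Pde11a stood at 1153 and 1096 CPM in cluster 0 and 1336 and 1406 CPM in cluster 3 of the naive library, and Rorb at 949 and 869.8 CPM and 1275 and 1193 CPM. Mlxipl differed more: in naive cluster 0 it stood at 106 CPM in members and 66.6 CPM in the reference, a ratio of 1.598 (1.19 to 2.14) that is past the limit, while in injured cluster 0 the ratio was 1.15 (0.811 to 1.62). In clusters 3 and 5 its ratios ran from 0.784 to 1.28, each with an interval on both sides of 1. For Gal, Pde11a and Rorb the levels of members and reference within these 3 clusters lay closer together than those of all members and all reference nuclei. Summed over the other clusters, levels were lower but members remained above the reference. Gal stood there at 116 CPM in naive members and 71.6 CPM in the reference, and at 66.2 and 42.7 CPM in the injured library. Pde11a stood at 253 against 109 and 345 against 138.5 CPM, and Mlxipl at 12.1 against 6.82 and 24.01 against 6.33 CPM. Members and reference were not matched by cluster in these last values.

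Members differed among themselves along the same genes. Those with at least 1 Gal UMI (287 naive, 228 injured) held Pde11a at 877 and 1128 CPM, Gucy2d at 171 and 192 CPM and Rorb at 897 and 1005 CPM. Members without Gal (122 and 126) held Pde11a at 398 and 509.6 CPM, Gucy2d at 70.5 and 83.2 CPM and Rorb at 474 and 555 CPM. Penk went the other way, at 43.9 and 17.8 CPM with Gal and 83.5 and 37.6 CPM without. Reference nuclei with 2 or more Gal UMIs (437 and 283) lay between members with and without Gal in Pde11a (701 and 877 CPM), Rorb (667 and 895 CPM) and Gucy2d (148 and 157 CPM).

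Pdyn was also found in excitatory nuclei, taken as at least 2 Slc17a6 UMIs and none of the inhibitory genes: 125 of 484 naive (25.8%, 22.0 to 29.97) and 109 of 475 injured (23.0%, 19.2 to 27.0). Thinned to 4000 UMIs, these were 13.4% and 11.6%. Several genes high in members were low there. Mlxipl had 0 UMIs in the 125 and the 109 nuclei, which allows up to 2.46 and 2.44 CPM, Pde11a stood at 13.1 and 13.0 CPM and Gal at 29.5 and 9.78 CPM. Hpse2, by contrast, stood at 146 and 123 CPM there, beside 97.9 and 124 CPM in the inhibitory reference, Ankfn1 at 506 and 468.5 CPM, and Hrh3 at 17.2 and 10.6 CPM. Penk was at 219 and 146 CPM, above its level in members. Meis2, low in members, stood at 68.0 and 110.0 CPM.

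Between the libraries, 49 of 7755 genes (0.632%) were at least 1.5 times higher in injured than in naive members, and 219 (2.82%) at least 1.5 times lower. Here measured means at least 100 UMIs in members and a UMI in at least 5% of members of 1 library. In the larger reference the same genes gave 13 (0.168%) and 66 (0.851%). The median log2 ratio over all genes was -0.06 in members. With the genes split into 3 groups of equal number by length, it was -0.17 for the shortest, -0.08 for the middle and 0.03 for the longest group, so gene length moved with the ratio.

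Penk, Oprk1 and Pcsk1n were lower in injured members. Penk stood at 55.9 CPM (170 UMIs in 75 naive members) and 25.1 CPM (78 UMIs in 50 injured members), a ratio of 0.449 (0.339 to 0.591), beside 0.622 (0.557 to 0.693) in the reference. Oprk1 stood at 30.9 and 19.7 CPM, a ratio of 0.636 (0.453 to 0.887) beside 0.862 (0.734 to 1.01) in the reference. Its log2 ratio in members was -0.35, inside the limit, among nuclei with Xist and no Y-linked UMIs and -1.05 among those with Y-linked and no Xist UMIs. Pcsk1n, the inhibitor of a prohormone convertase, stood at 245 and 149 CPM, a ratio of 0.608 beside 0.597 in the reference. These 3 were the genes past the limit among 10 measured in the opioid list. Pdyn itself was fixed in members by the rule and is not compared. Gal had a ratio of 0.681 (0.608 to 0.763) in members, inside the limit, beside 0.640 in the reference, which was past it. Tac2 was at 0.570 (0.388 to 0.831) in members and 1.18 in the reference, and in naive members 1 nucleus held 25 of its 79 UMIs.

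Other genes lower in injured members were Tnfrsf19, a receptor of the tumour necrosis factor family (23.7 and 10.3 CPM, ratio 0.435, 0.278 to 0.669), Rgs10, a regulator of G protein signalling (28.3 and 13.2 CPM), and Heph, a copper-dependent iron oxidase (24.3 and 11.3 CPM). Their ratios in the reference were 0.713, 0.741 and 0.577, on the same side of 1. Prdm8, a transcriptional repressor of the inhibitory identity list, stood at 22.7 and 11.0 CPM in members, a ratio of 0.483 (0.310 to 0.738), beside 0.918 (0.734 to 1.15) in the reference. Mtmr9 went from 22.4 to 11.3 CPM, with 0.504 (0.325 to 0.769) beside 1.15 (0.952 to 1.38). Rassf3, Atp6v1g1, Pgam1, a glycolytic enzyme, Vars, Atp2b4, a calcium pump, and Nop10 had ratios from 0.471 to 0.509, with 0.646 to 0.783 in the reference. For 11 of these 12 genes the reference ratio was also below 1. Inside the limit were Rgs10 (log2 ratio -0.21) and Mtmr9 among members with at least 2 Pdyn UMIs, and Rassf3 (-0.36) among nuclei with Xist and no Y-linked UMIs.

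Among genes higher in injured members, Fam19a2, which encodes a secreted chemokine-like protein, led with 15.5 and 43.8 CPM, a ratio of 2.83 (2.02 to 4.04) beside 1.43 (1.30 to 1.58) in the reference. It was found in 21 naive and 25 injured members, and 3 injured nuclei held 43 of its 136 UMIs. Vmn2r29, a vomeronasal receptor gene of a large family of near-identical copies whose reads may be split, stood at 10.5 and 24.5 CPM, in 31 and 67 members. Gabra5, a GABA-A receptor subunit, stood at 11.2 and 23.5 CPM, with 15 of its 73 injured UMIs in 1 nucleus. Its log2 ratio, 1.07 in all members, was 0.22 among nuclei with Y-linked and no Xist UMIs and 0.58 among members with at least 2 Pdyn UMIs, both inside the limit. Fign, Sh3d19, Edil3 and Mitf had ratios from 2.11 to 2.41, beside 1.03 to 1.53 in the reference.

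Oligodendrocyte genes were in this group as well. Mbp, a myelin gene, stood at 48.7 and 95.4 CPM and St18, a transcription factor of oligodendrocytes, at 26.0 and 71.9 CPM. Oligodendrocyte markers summed to 106 CPM in naive and 282 CPM in injured members. Of the injured sum, 608 of 874 UMIs (69.6%) were in 12 members with 10 or more such UMIs, against 43 of 323 UMIs in 2 naive members. Without those nuclei, the sums were 94.4 and 90.1 CPM, and the log2 ratios were -0.01 for St18 and -0.14 for Mbp. Both genes are among the markers that chose the nuclei removed, so these values are fixed in part by the removal. Tmeff2 and Slc24a2, at ratios of 2.28 and 2.07, had 42.0% and 49.1% of their injured UMIs in the same 12 nuclei, and without them were inside the limit. Edil3, Fign, Sh3d19 and Mitf had 35.6%, 21.9%, 19.8% and 14.5% of theirs in these nuclei, and without them stayed past the limit. Cluster 22, whose leading genes are those of oligodendrocytes, held 11 of the injured and 0 of the naive members. The reference showed a smaller rise of the same kind, with marker sums of 147 CPM (naive) and 212 CPM (injured). There, 13 and 36 nuclei had 10 or more such UMIs, and without them the sums were 118 and 111 CPM. The share of the reference in cluster 22 went from 0.41% to 2.1%. The rise was therefore not confined to members.

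**Figure D4:**
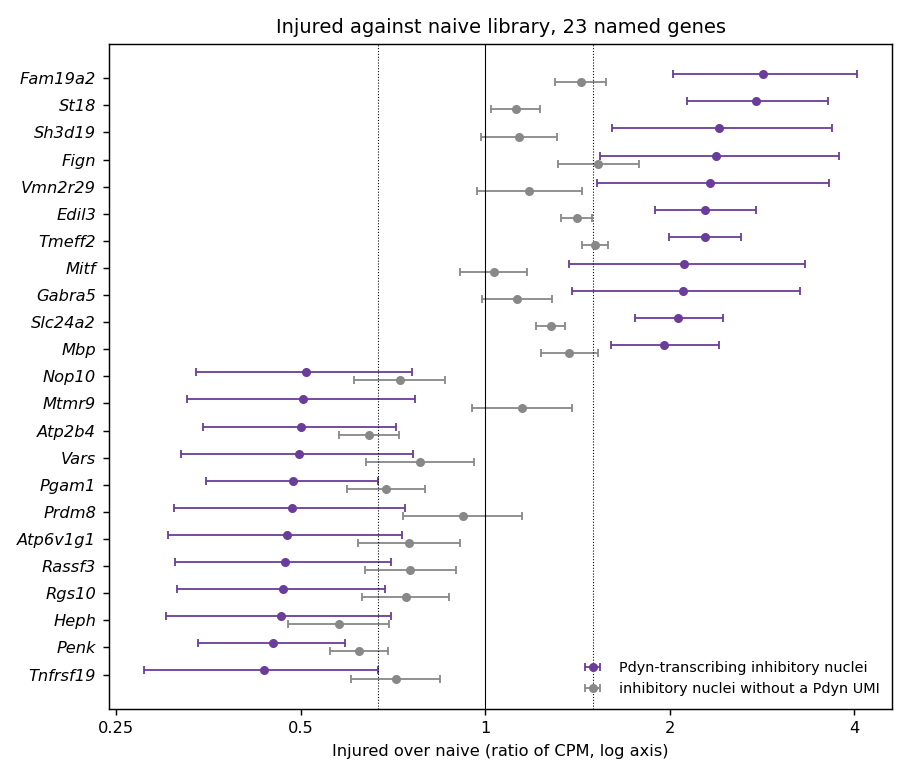
Ratio of CPM in the injured over the naive library (x axis, log scale) for 11 of the highest and 12 of the lowest genes (y axis) in members (purple) and reference nuclei (grey), with 95% intervals for counting error; dotted lines mark 1.5-fold. For 22 of the 23 genes, all but Mtmr9, the reference lies on the same side of 1 as the members.

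As groups, few lists differed between the libraries. In 12 of 12 measured heat shock genes the ratio was below 1 in members, with a median log2 of -0.26 beside -0.24 in the reference and -0.06 over all genes in members. Of 35 G protein and second messenger genes Pde4b was higher (1.64) and Prkg2 lower (0.641). Of 15 GABA and glycine receptors Gabra5 was higher, and of 22 glutamate receptors and 37 potassium, HCN and leak channels 0 were past the limit. Of 23 identity factors Prdm8 was lower and 0 higher, and of 52 adhesion and guidance genes 0 were past the limit. Of 21 sodium and calcium channels Cacna2d1 was higher (1.598), and of 9 monoamine, acetylcholine and cannabinoid receptors the serotonin receptor Htr1f was higher (1.80), with a median log2 of 0.22 beside 0.25 in the reference. Of 11 peptide receptors Oprk1 and Adcyap1r1 (0.656) were lower, of 2 measured immediate early genes Jund (0.628) was lower, and of 11 markers of other inhibitory types Nos1 (0.542), Penk and Tac2 were lower and Fam19a2 higher. The 3 richest clusters together held 62.6% of naive and 64.1% of injured members. Single clusters differed more: cluster 3 held 18.8% and 23.7% of members, cluster 13 2.44% and 0.565%, cluster 16 0.978% and 2.82%, and cluster 22 0% and 3.11%.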

How the data were processed

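GFP-sorted nuclei of 2 pooled libraries (8 mice each, 10x Chromium 3' version 3 chemistry) were analysed from the deposited tables. Per the submitters' processing notes the authors used Cell Ranger 3.0.2, Seurat (version not given) and build mm10. The deposited count matrix holds whole UMI counts for 19575 genes and 7610 nuclei, already filtered (lowest 514 genes per nucleus). The per-sample tables the authors deposited hold natural log values, ln(1 + counts scaled to 10000 per nucleus), which the counts gave back within 6e-15; they assigned nuclei to libraries and served as an alternative. The members and gene lists were chosen with earlier results of these data known.

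UMIs were summed over members and reference in each library and scaled to CPM. Ratios have exact conditional binomial intervals, shares Clopper-Pearson and levels exact Poisson intervals (95%), all covering counting error only. Genes past 1.5-fold are called, and no p-value was computed, as there is 1 library per group. Thinned shares are expected shares at 4000 or 2000 UMIs. Nuclei were clustered with scanpy 1.11.5 (30 principal components, 15 neighbours, Leiden resolution 1.0, no batch correction, 27 clusters), 114 genes being kept out. No doublet caller was run; nuclei with UMIs of both Xist and Y-linked genes were left out as an alternative. The method was tested on simulated data. Named genes were the 12 highest and 12 lowest past the limit on the same side of 1 among Xist-only and Y-only nuclei, up to 2 highest and lowest of each list, and any gene of the opioid, neuropeptide and identity lists; predicted, mitochondrial, ribosomal and sex-linked genes were left out, and some genes the rule selects are not reported here. Genes outside that rule (such as P2ry12 and the leading genes of clusters) were named after their values were seen.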

Additional observations from a re-analysis of the deposited data

How the results depend on the processing

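Most values kept their direction, and the limits are the single library per group, 1 Pdyn UMI in most members, the pooling of mice and the shallow glial nuclei that set the background. Of 810 recomputed member-to-reference values of 27 named genes, 634 stayed within the counting interval, 164 moved and 12 changed sign. Of 336 injured-to-naive values of 24 genes these were 287, 47 and 2. Some of these outcomes were fixed in advance. A lower minimum of UMIs changes which genes are measured and not their ratios. The deposited normalized values repeat the setting in which each nucleus had the same weight. Genes named as highest or lowest were chosen to keep their side of 1 among Xist-only and Y-only nuclei. Those settings could therefore not reverse them. No paired analysis was possible because each group has 1 library and no shared replicate number.

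The share of inhibitory nuclei with Pdyn moved when at least 2 UMIs were asked for (3.72% naive, 4.10% injured), when nuclei were thinned (12.1% and 10.8%), and, in the injured library, with a transmitter sum of at least 4 (17.1%). The 94 higher and 298 lower genes became 274 and 817 with a minimum of 20 UMIs, and 1 and 0 with the reference weighted to the clusters of the members. The 49 genes higher and 219 lower in injured members became 514 and 970 with at least 2 Pdyn UMIs, 467 and 1061 with a minimum of 20 UMIs, 137 and 461 with a transmitter sum of at least 4, 127 and 380 among Xist-only nuclei, and 328 and 745 among Y-only nuclei. Fewer nuclei enter the first and the last 3 of these.

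Signs changed as log2 values under cluster weighting for Grin2c (naive -0.079), Meis2 (0.075 naive, 0.24 injured), Pkd2l1 (0.19 naive, 0.98 injured), Myo3b (0.45 injured), Zfpm2 (0.20 naive) and Arhgap22 (0.12 naive). Without nuclei rich in cerebrospinal fluid markers they changed for Slc26a4 (0.76 naive) and for Pkd2l1 (0.92 naive, 0.31 injured) and Myo3b (0.036 injured), which are themselves among those markers. Without nuclei with 10 or more oligodendrocyte UMIs they changed for St18 (-0.012) and Mbp (-0.14), also markers used for the removal, between the libraries. The weighting and both removals were chosen after the data were seen. Beyond these constructions the cause was not tested.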
